A study of Mus musculus with 6 samples.

Results

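The protein components of the cytosolic ribosome were examined as a gene family in C2C12 myotubes with and without the cytokine TWEAK. Members were the protein-coding genes whose symbols follow the Rps, Rpl and Rplp naming scheme, plus Rpsa. Genes for S6 kinases and for binding proteins were left out. The rule used names alone and no expression value, and it found 86 of the 49592 genes listed. Of these, 31 encode small-subunit proteins, 43 encode large-subunit proteins, 3 encode the acidic stalk, and 9 are paralogs or retrogenes of another member. The members lie on 19 chromosomes.

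C2C12 is an established mouse myoblast line whose cells fuse into multinucleated myotubes when serum is withdrawn. The cultures were expanded in 10% serum and switched to 2% serum (HS in the labels) for 3 days of differentiation. They then spent 12 h either untreated or with 10 ng/ml of TWEAK, a ligand of the TNF superfamily. The study asked how TWEAK acts on the fusion of myoblasts into myotubes. There were 3 poly(A)-selected RNA libraries per treatment, numbered as trials 1 to 3. Whether a trial was a culture of its own is not stated. The p-values therefore reflect variation among these 6 libraries, which may be technical.

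Each cytosolic ribosome is assembled in the nucleolus from ribosomal RNAs and a set of proteins that are, for the most part, encoded by single-copy genes and needed in equal amounts. The mRNAs of nearly all these proteins begin with a 5′ terminal oligopyrimidine (TOP) tract, through which mTOR signalling and the RNA-binding protein Larp1 control their translation. Growth of muscle fibres is accompanied by ribosome synthesis. Striated muscle also has its own paralog of a core protein, Rpl3l, which replaces the ubiquitous Rpl3 in mature fibres.

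A pyrimidine tract near the annotated start was found in some of these genes, and examples are printed below. They show 4 members that rose with TWEAK, Rpl10, whose values overlapped between groups, and the pair Rps27 and Rps27rt, in which a retrogene kept part of its parent's sequence. Each is 30 bases of the gene's strand around the tract CTTTCC or CTTTTCC, in capitals, 5′ to 3′, from RefSeq build GRCm38.p6. Counted from the first base of the annotated transcript, the tract begins at position 4 in Rpl18, 2 in Rps27, 1 in Rps27rt and -10 in Rpl34. It begins farther off in Rpl36al (32), Rpl10 (44) and Rps19 (-41 from the nearer of its annotated starts), whose windows do not hold that start. The windows lie at chr7:45718062-45718091 (+) for Rpl18, chr3:130730329-130730358 (-) for Rpl34, chr12:69184019-69184048 (-) for Rpl36al and chr7:24884623-24884652 (+) for Rps19. Those of Rpl10, Rps27 and Rps27rt lie at chrX:74270836-74270865 (+), chr3:90213630-90213659 (-) and chr9:114982722-114982751 (-).
Rpl18: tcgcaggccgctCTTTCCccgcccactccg
Rpl34: cccgccccttcCTTTTCCtcttccggggac
Rpl36al: ctctgttcgtccCTTTCCtgttcggcgcgt
Rps19: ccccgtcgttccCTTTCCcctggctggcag
Rpl10: cgtgagcaggcgtgggagcgtctCTTTTCC
Rps27: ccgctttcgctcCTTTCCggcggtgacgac
Rps27rt: acttatcccttgCTTTCCggcggtgacgac

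The RefSeq promoter table held 66 of the 86 members, each as 250 bases before and 50 after the start. Read on the gene's strand within the last 100 bases, CTTTCC or CTTTTCC was found in 28 of the 66 members, or 42.4%, against 6.76% of the 27025 genes in the table. Over the whole 300 bases and both strands it was found in 42 members (63.6%) against 35.4% of all genes. CCGGAAG, the core of an ETS factor motif, was found on either strand in 26 members (39.4%) against 9.93% of all genes. From the tract onwards the windows of Rps27 and Rps27rt were identical for 18 bases, and 22 of their 30 positions matched. A match describes letters in a window and does not show that a factor binds there or that the mRNA starts there.

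Ribosomal protein mRNAs were among the most abundant in these cells. The median member had a mean level of 254 FPKM (fragments scaled for gene length and sequencing depth), against 8.58 FPKM for the median of the 12770 genes tested, and 70 members were at 100 FPKM or more. A gene entered the test with a mean of at least 0.5 FPKM, which 82 of the 86 members passed. The other 4 were Rpl3l and Rpl39l, with a handful of reads each, and Rpl10l and Rps23rg1, both listed at 0 in all 6 libraries. Many near-identical processed pseudogenes of these genes exist, so reads may be split between copies and member values carry that uncertainty. In bulk RNA, fewer cells of a type and less RNA per cell cannot be told apart.

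The libraries held 29980450, 34318279 and 30091347 assigned reads in TWEAK trials 1, 2 and 3, and 33494841, 33597026 and 40919919 in the untreated ones, as recovered from the FPKM values. TWEAK trial 3 stood apart, with a summed FPKM over all genes of 410814 against 376609 to 386763 in the other 5 libraries. The labels give the cell type as myoblast, while the protocol describes myotubes. All 10 myotube markers passed the filter, with a summed level of 12619 to 15861 FPKM per library. Of these, 4 fell with TWEAK, against 6.10% of all tested genes. They were the embryonic and perinatal myosin genes Myh3 and Myh8 with the sarcomere genes Actn2 and Ttn. The others were not called. Among them Myog (log2 fold change 0.23) and Mymk (0.16) lay above 0, and Ckm (-0.26), Acta1 (-0.26), Mylpf (-0.18) and Tnnt3 (-0.14) below it. The Ttn call was lost without TWEAK trial 2 or untreated trial 1 or 2. The log2 fold change of this very long gene went from -0.69 to -0.24 when a trend on gene length, described below, was subtracted. The 8 markers of undifferentiated myoblasts summed to 69.2 to 96.1 FPKM. After TWEAK 2 were higher (background 8.98%), Cd34 and Msc, and 4 lower (background 6.10%), Id1, Id3, Heyl and Myf5. Msc was low, at a mean of 0.817 FPKM with TWEAK and 0.416 without. It passed the filter of 0.5 FPKM only through the TWEAK group, so its rise does not count as support. The Msc call was also lost in every fit that left out a library except that without TWEAK trial 3. Markers of other cell types were low: 6 macrophage genes summed to 4.26 to 6.51 FPKM with Adgre1 at 0, 5 adipocyte genes to 1.64 to 3.24 with Plin1 at 0, 5 osteoblast genes to 2.74 to 3.67 with Ibsp at 0, and 4 endothelial genes to 0.0585 to 0.104. Of these, Cd14 was called higher with TWEAK (log2 fold change 0.44, limma adjusted p = 0.0142, lost without TWEAK trial 2 or untreated trial 1) and Pparg lower (-0.42, limma adjusted p = 0.0245, lost without TWEAK trial 2 or untreated trial 1 or 3). The part of these markers in the results below was not tested.

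After TWEAK, ribosomal protein mRNAs stood slightly higher across almost the whole family. The summed level of the 86 members was 24589, 26723 and 30541 FPKM in TWEAK trials 1, 2 and 3 and 23053, 22487 and 23038 FPKM in the untreated libraries, that is 27284 ± 3015 against 22859 ± 323 FPKM (SD, n = 3 each). Every TWEAK library lay above every untreated one, and the TWEAK libraries were far more spread out than the untreated ones. As a share of each library's summed FPKM, members took 6.53%, 6.97% and 7.43% with TWEAK and 6.02%, 5.82% and 5.96% without, so the groups also did not overlap once the larger total of TWEAK trial 3 was divided out. As a share of assigned reads they took 2.99% ± 0.281 against 2.46% ± 0.0586 (SD, n = 3 each). No test was made of these sums.

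Gene by gene, the differences were small and alike. The median log2 fold change (difference of log2(FPKM + 1), TWEAK minus untreated) of the 82 tested members was 0.25, a fold of 1.19, against 0.01 for all tested genes. The middle part of the distribution, from lower to upper quartile, ran from 0.21 to 0.28, and 75 members lay between 0.15 and 0.35. The SD over members was 0.07, while the median standard error of a single member was 0.09. That error holds differences between libraries that the members share. Setting it beside the SD over members therefore cannot show whether members differ from one another. The log2 fold change was above 0 in 81 of 82 members, against 52.3% of all tested genes, and the exception was the retrogene Rps27rt at -0.12.

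Few members passed the test singly. With limma on log2(FPKM + 1), adjusted over all tested genes by the Benjamini-Hochberg method at 0.05, 8 members (9.76%) were called higher, against 8.98% of all tested genes, and 0 were called lower, against 6.10%. The share called was thus close to the background, and these calls by themselves do not set the family apart. Before adjustment, 64 members had a limma p under 0.05, all with higher values after TWEAK. The share of all tested genes at that level was not counted. The members also share these libraries and moved together, so the 64 are not separate results. In 65 of 82 members all 3 TWEAK libraries lay above all 3 untreated libraries, against 20.0% of all tested genes, and in 0 they lay below, against 15.9%. A fit with the trial number as a block called 52 members higher, against 15.4% of all genes, and 0 lower, against 12.5%, and the 52 included the 8. Limma-voom on the recovered reads called 18 (background 9.53%), and 75 with the block (16.6%). Scaling each library to the same summed FPKM gave 37 (8.42%), and dropping the filter on low values gave 1 (1.90%). The number called depended on single libraries. It was 35 without TWEAK trial 1 (background 9.92%), 0 without TWEAK trial 2 (3.92%), 4 without TWEAK trial 3 (7.49%), and 2, 1 and 1 without untreated trials 1, 2 and 3 (5.01%, 5.52% and 5.80%). With the block and both libraries of trial 1, 2 or 3 left out, it was 37, 16 or 8 (backgrounds 12.8%, 13.0% and 12.5%).

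**Figure D1:**
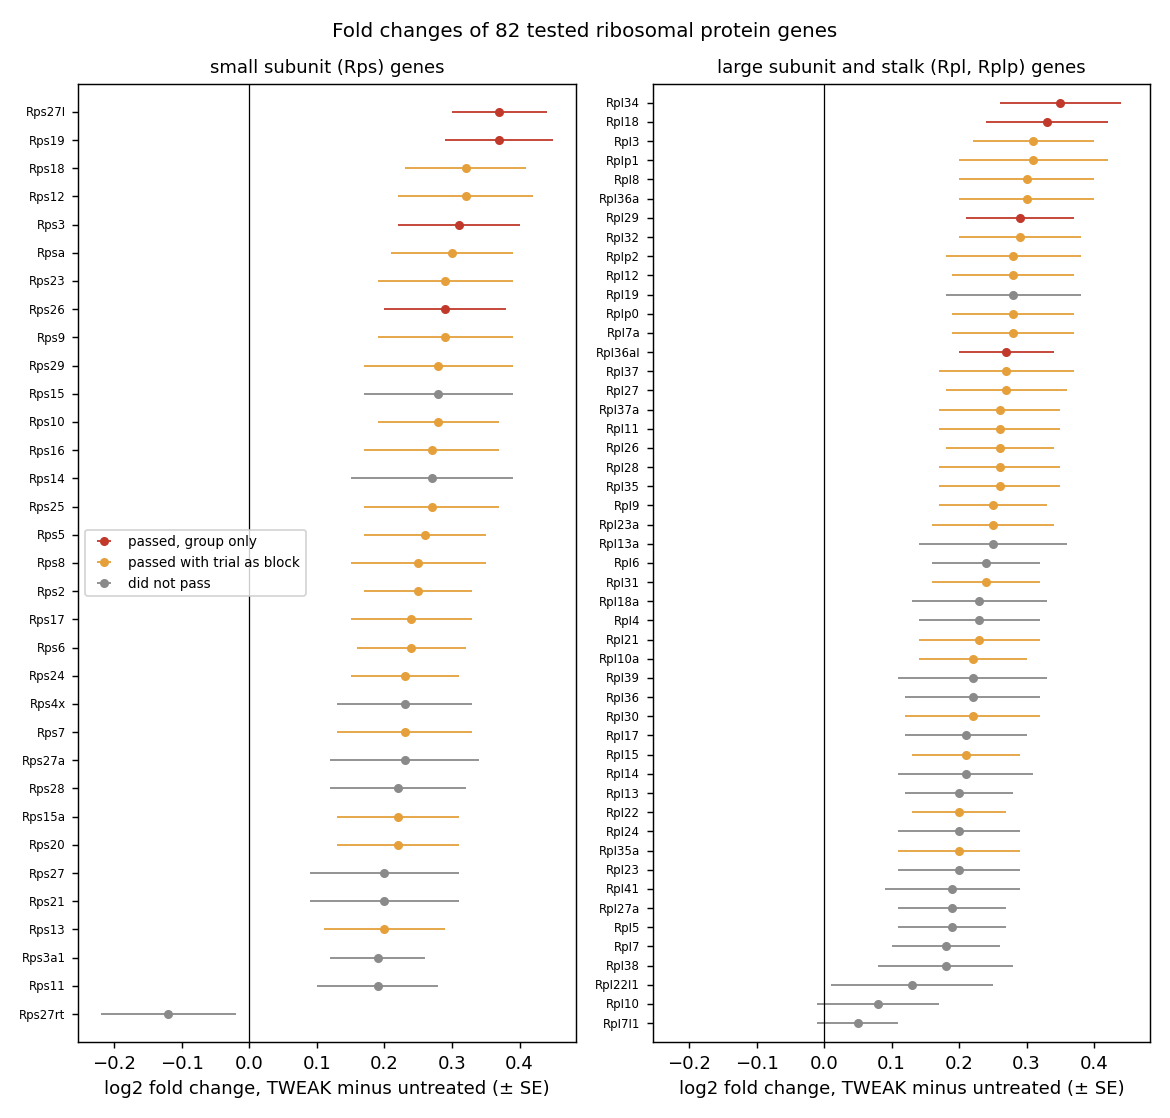
Log2 fold change (x axis, difference of log2(FPKM + 1), TWEAK minus untreated) of the 82 tested members in order of size, with bars of ± 1 standard error; small-subunit genes on the left, large-subunit and stalk genes on the right. Red points passed with group as the only term (8 members), orange points passed only with the trial as a block, and grey points passed neither; all but Rps27rt lie to the right of 0.

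The size of the difference varied by trial. The median over members was 0.10 in trial 1, 0.25 in trial 2 and 0.39 in trial 3, where the medians of all tested genes were -0.00, 0.01 and 0.02. Trial 3 gave the largest difference in 75 of 82 members and trial 1 the smallest in 79. In 78 members the TWEAK library was the higher in all 3 trials, against 31.0% of all tested genes. The other 4 were Rpl10, Rpl41, Rplp2 and Rps27rt. With TWEAK trial 3 left out, the median was 0.17.

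**Figure D2:**
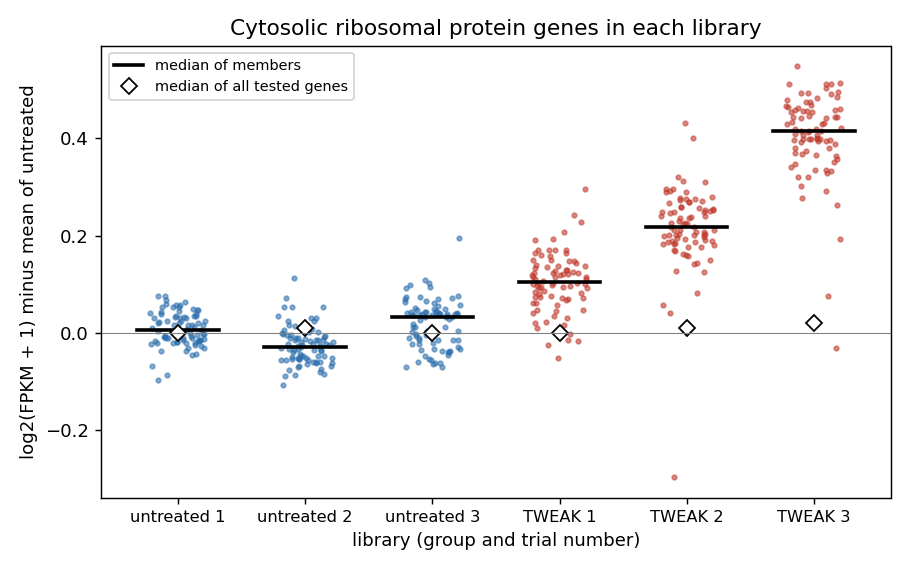
Each point is 1 tested member in 1 library, plotted on the y axis as log2(FPKM + 1) minus that gene's mean over the untreated libraries; bars are medians over members and diamonds medians over all tested genes. Untreated medians lie near 0, the TWEAK median is lowest in trial 1 and highest in trial 3, and the diamonds stay near 0 in all 6 libraries.

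Among small-subunit proteins, 31 of 31 genes had a log2 fold change above 0, between 0.19 and 0.37 with a median of 0.25. All TWEAK libraries lay above all untreated ones in 26 of them, against 20.0% of all tested genes. Rps19, Rps3 and Rps26 rose, a share close to the background of 8.98%, and 22 genes passed with the trial as a block, against 15.4%.

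Rps19 (chr7:24583796-24589231, GRCm39), a small-subunit protein whose gene is mutated in Diamond-Blackfan anaemia, gave 72.6, 83.2 and 89.4 FPKM in TWEAK trials 1, 2 and 3 and 64.3, 62.2 and 61.8 FPKM in the untreated libraries. The lowest TWEAK value was above the highest untreated one. Its log2 fold change was 0.37 ± 0.08 (SE, n = 3 each), a fold of 1.30, with a limma adjusted p of 0.0170. The call was lost without TWEAK trial 2 and without untreated trial 2 or 3, where the limma adjusted p reached 0.0730.

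Rps3, which sits at the mRNA entry channel, measured 202, 211 and 247 FPKM with TWEAK and 179, 171 and 181 FPKM in the untreated libraries (0.31 ± 0.09 on the log2 scale, limma adjusted p = 0.0460). Rps26, at the mRNA exit channel, measured 191, 203 and 231 FPKM against 176, 162 and 171 FPKM (0.29 ± 0.09, limma adjusted p = 0.0499). Neither gene's groups overlapped. Both calls lie just inside the threshold and were lost in 5 of the 6 fits that left out a library, all but that without TWEAK trial 1, with a limma adjusted p of up to 0.145 for Rps3 and 0.161 for Rps26. Rps18, a common reference gene in quantitative PCR, lay just outside, at 279, 300 and 354 against 245, 248 and 251 FPKM (0.32 ± 0.09, limma adjusted p = 0.0535, and 0.0116 with the trial as a block).

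Other small-subunit genes followed the same pattern without passing. Rps6, the substrate of S6 kinase, measured 211, 226 and 253 FPKM against 195, 188 and 200 FPKM, with a limma adjusted p of 0.0878 (0.0309 with the block). Rpsa, also known as the laminin receptor, had a log2 fold change of 0.30 ± 0.09 with a limma adjusted p of 0.0615 (0.0190 with the block). Rps27a, made as a fusion with ubiquitin, had 0.23 ± 0.11 with a limma adjusted p of 0.204 (0.0661 with the block), and its groups overlapped. Rps15 and Rps14 were the most abundant small-subunit mRNAs. Rps15 measured 959, 1038 and 1187 FPKM against 899, 891 and 831 FPKM, a log2 fold change of 0.28 ± 0.11 (limma adjusted p = 0.113). Rps14 measured 887, 946 and 1186 FPKM against 818, 814 and 860 FPKM, a log2 fold change of 0.27 ± 0.12 (limma adjusted p = 0.168). Their groups did not overlap.

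Among large-subunit proteins, 43 of 43 genes had a log2 fold change above 0, between 0.08 and 0.35 with a median of 0.24. All TWEAK libraries lay above all untreated ones in 35, against 20.0% of all tested genes. Rpl18, Rpl34 and Rpl29 rose, a share under the background of 8.98%, and 25 genes passed with the trial as a block, against 15.4%.

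Rpl34, a large-subunit surface protein, had 180, 186 and 225 FPKM in TWEAK trials 1, 2 and 3 and 161, 153 and 147 FPKM in the untreated libraries. All TWEAK values were the higher, with the widest gap in trial 3. Its log2 fold change was 0.35 ± 0.09 (SE, n = 3 each), a fold of 1.28, with a limma adjusted p of 0.0356. Rpl18 had 116, 124 and 145 FPKM against 102, 101 and 101 FPKM (0.33 ± 0.09, limma adjusted p = 0.0354). Both lost the call without TWEAK trial 2 and without any untreated trial, where the limma adjusted p reached 0.106 for Rpl18 and 0.105 for Rpl34. Rpl29 was lower in level, at 50.1, 47.6 and 58.2 against 41.6, 43.8 and 41.2 FPKM (0.29 ± 0.08, limma adjusted p = 0.0442). It lost the call in all 6 fits without a library, with a limma adjusted p of up to 0.132.

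Rpl5 and Rpl11 bind the 5S ribosomal RNA and, when free of the ribosome, the p53 regulator Mdm2. Rpl5 had a log2 fold change of 0.19 ± 0.08 with a limma adjusted p of 0.149 (0.0681 with the trial as a block). Rpl11 had 0.26 ± 0.09 with a limma adjusted p of 0.0814 (0.0363 with the block). The groups of neither gene overlapped. Rpl13a, which also acts in an interferon-dependent complex that silences translation, had 0.25 ± 0.11 and a limma adjusted p of 0.142. Rpl38, known for its part in Hox mRNA translation, had 0.18 ± 0.10 and a limma adjusted p of 0.265, with overlapping groups.

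Rpl10, a late-joining protein next to the peptidyl transferase centre, had the smallest log2 fold change among the members that are not paralogs. It measured 412, 436 and 479 FPKM with TWEAK and 419, 402 and 437 FPKM without. The groups overlapped, and in trial 1 the untreated library was the higher. The log2 fold change was 0.08 ± 0.09 with a limma adjusted p of 0.606. Whether it differed from the other members was not tested.

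The stalk proteins, which recruit elongation factors to the large subunit, were among the more abundant members. Rplp0 measured 572, 615 and 677 FPKM against 529, 496 and 506 FPKM, and Rplp1 measured 902, 1034 and 1174 against 842, 841 and 816 FPKM. Rplp2 measured 229, 268 and 302 FPKM against 230, 216 and 209 FPKM. Rplp0 and Rplp1 did not overlap between groups, while for Rplp2 the TWEAK library of trial 1 fell among the untreated ones. The log2 fold changes were 0.28 ± 0.09, 0.31 ± 0.11 and 0.28 ± 0.10, with limma adjusted p-values of 0.0681, 0.0959 and 0.104. With the trial as a block all 3 passed, at 0.0359, 0.0457 and 0.0417.

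The 9 paralogs and retrogenes split by level. Of the 5 that were tested, 2 rose, their median log2 fold change was 0.13, and the groups did not overlap in 2 (backgrounds 8.98% and 20.0%). Rps27l (chr9:66853368-66856798, GRCm39), a paralog of Rps27 and a known p53 target, had the lowest adjusted p of all members. It measured 161, 177 and 173 FPKM in TWEAK trials 1, 2 and 3 and 128, 127 and 138 FPKM in the untreated libraries, well apart in every trial. Its log2 fold change was 0.37 ± 0.07 (SE, n = 3 each), a fold of 1.30, with a limma adjusted p of 0.00959, and it passed in all fits that left out a library except that without TWEAK trial 2 (limma adjusted p = 0.0535). Its differences of 0.32, 0.48 and 0.32 in trials 1, 2 and 3 did not follow the order of the family medians. The parent gene Rps27 measured 291, 313 and 393 against 279, 301 and 280 FPKM, with overlapping groups (0.20 ± 0.11, limma adjusted p = 0.264). Rps27l amounted to 51.3% of the Rps27 level with TWEAK and 45.7% without, on average over 3 libraries. By library this share was 55.4%, 56.6% and 44.0% with TWEAK and 46.0%, 42.2% and 49.3% without, so it overlapped between groups.

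Rpl36al, an expressed copy of the X-linked Rpl36a, measured 53.5, 56.7 and 62.6 FPKM against 49.6, 46.9 and 45.8 FPKM. The groups did not overlap, and it rose by 0.27 ± 0.07 on the log2 scale (limma adjusted p = 0.0396). It lost the call in 5 of 6 fits without a library, all but that without TWEAK trial 1, with a limma adjusted p of up to 0.114. Rpl36a itself had a log2 fold change of 0.30 ± 0.10 (limma adjusted p = 0.0691, and 0.00776 with the trial as a block), and the copy held 31.7% of its level with TWEAK and 32.2% without.

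Rpl7l1, a nucleolar relative of Rpl7 that acts in large-subunit assembly, measured 54.7, 58.0 and 57.8 against 54.5, 53.7 and 56.2 FPKM. Its groups overlapped, with a log2 fold change of 0.05 ± 0.06 and a limma adjusted p of 0.621. Rpl7 had 0.18 ± 0.08 with a limma adjusted p of 0.162 and groups that did not overlap. The level of Rpl7l1 was 14.7%, 14.1% and 13.6% of that of Rpl7 in the TWEAK libraries and 15.2%, 15.5% and 15.7% in the untreated ones, lower in all 3 TWEAK libraries. Rpl22l1, which can take the place of Rpl22, measured 20.0, 21.4 and 27.7 FPKM against 19.5, 19.2 and 23.9 FPKM, with overlapping groups (0.13 ± 0.12, limma adjusted p = 0.532). Rpl22 had 0.20 ± 0.07 with a limma adjusted p of 0.0933 (0.0441 with the block).

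Rps27rt, the retrogene whose start window is shown above, was at 2.37, 1.77 and 2.33 FPKM with TWEAK and 2.18, 2.68 and 2.37 FPKM without. That was 0.650% of the Rps27 level with TWEAK and 0.842% without. It rested on 76 and 96 reads, and its log2 fold change of -0.12 ± 0.10 had a limma adjusted p of 0.496.

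The muscle paralog Rpl3l (chr17:24946794-24955117, GRCm39) was barely detected in these myotubes, while Rpl3 (chr15:79961992-79976069) was abundant. Rpl3 measured 179, 191 and 229 FPKM in TWEAK trials 1, 2 and 3 and 163, 159 and 159 FPKM in the untreated libraries, without overlap. Its log2 fold change was 0.31 ± 0.09 with a limma adjusted p of 0.0549, just outside the threshold, and it passed with the trial as a block at 0.0128. Rpl3l measured 0.0717, 0.0628 and 0.0976 FPKM with TWEAK and 0.0879, 0.0885 and 0.179 FPKM without. These values overlapped between groups. They came from 10 and 18 recovered reads over 3 libraries each, a ratio of TWEAK to untreated, scaled for depth, of 0.623 with a 95% exact binomial interval of 0.257 to 1.42, so no difference was detectable at this depth. The values also allow a common factor on the reads of this gene, and with more reads the interval would be narrower. Rpl3l stood at 0.0388% of the Rpl3 level with TWEAK and 0.0741% without, and in every library at or below 0.113%. It did not reach the level for testing, and genes of similar pattern were therefore not sought.

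Rpl39l, best known from the testis, gave 12 reads with TWEAK and 2 without, at 0.163, 0.107 and 0.208 FPKM against 0, 0 and 0.0613 FPKM. The depth-scaled ratio was 6.73, with a 95% exact binomial interval of 1.50 to 61.9 that covers counting error only. It was not tested, being under the level filter, and its level was 0.0709% of that of Rpl39 with TWEAK. Rpl39 itself measured 196, 213 and 267 FPKM against 183, 195 and 198 FPKM, with overlapping groups (0.22 ± 0.11, limma adjusted p = 0.217).

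**Figure D3:**
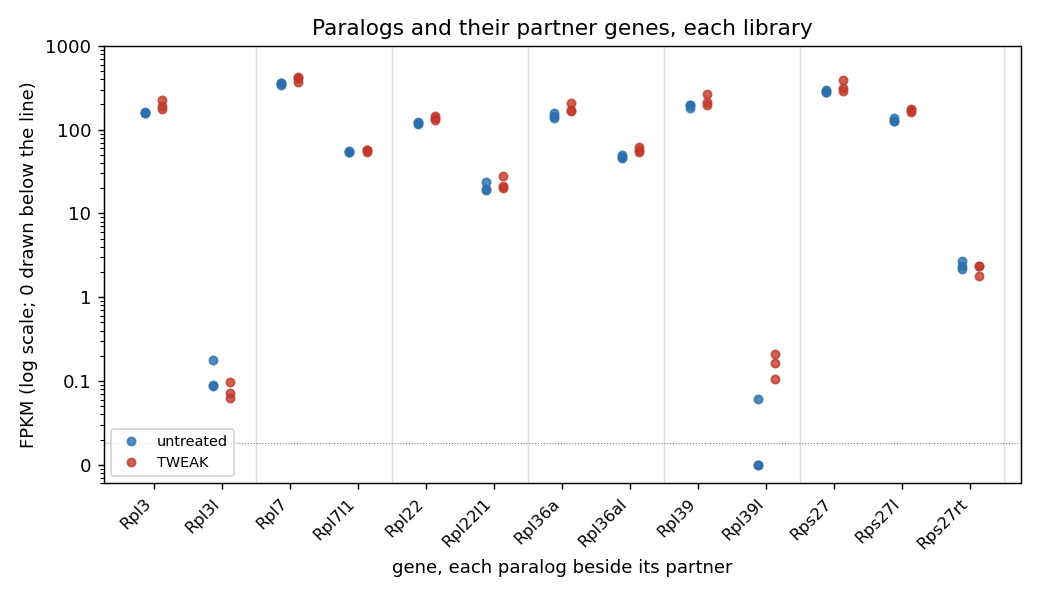
FPKM on a log scale (y axis, with 0 drawn below the dotted line) of each paralog beside its partner gene, 1 point per library, untreated in blue and TWEAK in red. Rpl3l lies at or below 0.113% of Rpl3 and Rpl39l at or below 0.0834% of Rpl39 in every library, while Rps27l and Rpl36al come close to their partners.

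Ribosomal protein genes are short, and in these libraries short genes differed from long ones. The length by which the FPKM were divided, recovered from the values, had a median of 1100 bases over tested members (374 to 5179) and 3167 bases over all tested genes. Under 1000 bases lay 42.7% of members and 9.58% of all tested genes. Across all 12770 tested genes, the log2 fold change correlated with log2 length at a Pearson r of -0.16 (Spearman rho -0.26), as a description over genes that share libraries. In trials 1, 2 and 3 this r was -0.07, -0.10 and -0.27, and without TWEAK trial 3 that of the fitted fold change was -0.08. The trial in which members differed most was thus also the trial with the steepest trend over all genes. The part of the trend in the members' difference was not tested.

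Genes of similar length outside the family had smaller medians, a difference that was not tested. Tested genes that are not members had a median log2 fold change of 0.05 under 1000 bases (1189 genes), 0.07 from 1000 to under 2000 bases (2127), 0.03 from 2000 to under 4000 bases (4871) and -0.04 from 4000 to under 8000 bases (3846). Members in the same bins had 0.26 (35 genes), 0.25 (33), 0.22 (12) and 0.23 (2), where the longest bin is too thinly filled to read. Over the 82 members, fold change and length correlated at an r of 0.07 (rho -0.05). Restricted to genes of at least 100 FPKM, non-members under 1000 bases had a median of 0.11 (94 genes) and those from 1000 to under 2000 bases 0.09 (181 genes). In trial 3 these medians were 0.26 and 0.20, against 0.40 and 0.39 for members of these lengths. In 25 of 35 members under 1000 bases the TWEAK libraries all lay above the untreated ones, and so did 23.4% of the 94 abundant non-members of that length.

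After a smooth trend on length had been subtracted from each library, the members' median log2 fold change was 0.18, with 80 of 82 above 0. Then 7 members were called higher, against 8.75% of all genes, and 33 with the trial as a block, against 14.7%, so that the count with the block was smaller by more than 1.5 times than the 52 without this step. Rps27l and Rps19 kept their calls after the subtraction, at limma adjusted p-values of 0.0123 and 0.0159. Rpl36al and Rpl29 did not, at 0.0571 and 0.0516, and Rps18 passed, at 0.0476.

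**Figure D4:**
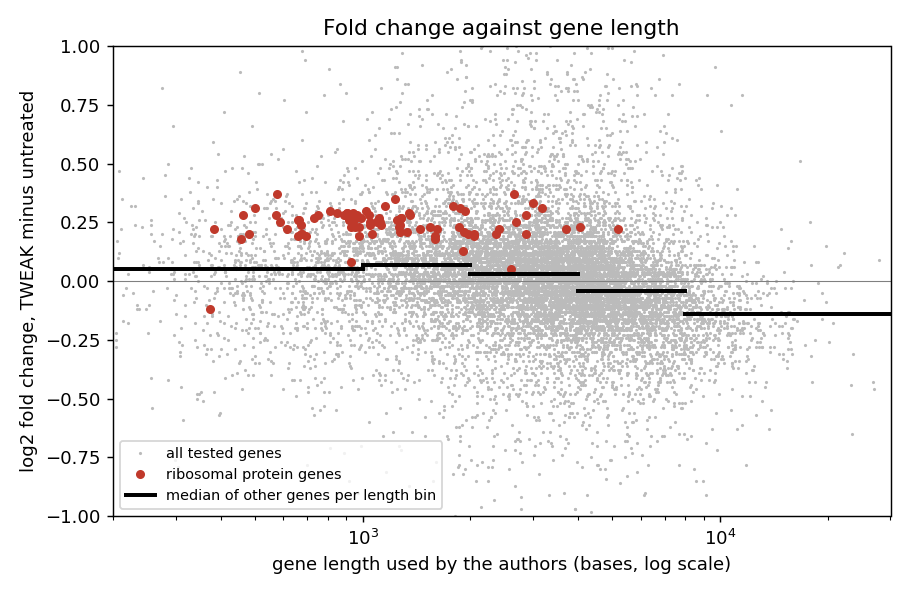
Log2 fold change (y axis, TWEAK minus untreated, drawn between -1 and 1, a few genes fall outside) against the gene length used by the authors in bases (x axis, log scale). Grey points are all tested genes, red points the 82 tested members, and black bars the median of non-members in each length bin; the bars descend from 0.05 and 0.07 to -0.14 with length, while nearly all red points lie near 0.25 at any length.

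Members with and without an exact match to CTTTCC or CTTTTCC had the same median. In the 27 tested members with CTTTCC or CTTTTCC on the gene's strand in the last 100 bases of the RefSeq window, the median log2 fold change was 0.25, and the groups did not overlap in 21. In the 35 tested members without it, the median was also 0.25, with 27 free of overlap. Members with CCGGAAG had a median of 0.26 (25 genes) and those without it 0.23 (37 genes). No test of these splits was made. A member without an exact match may still carry a TOP tract, so the first split does not compare members with and without one.

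Genes that act beside the ribosomal proteins were followed in lists. Of 3 tested ribosome components outside the naming scheme, 1 rose (background 8.98%), too few genes to read as a share. It was the scaffold protein gene Rack1, at 154, 163 and 180 FPKM against 137, 134 and 138 FPKM (log2 fold change 0.28 ± 0.08, limma adjusted p = 0.0407). The call was lost without every library in turn except TWEAK trial 1. Fau, which encodes a ribosomal protein fused to a ubiquitin-like one, had 0.20 ± 0.10 with a limma adjusted p of 0.209. Both sizes lay inside the range of the members.

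Ribosome biogenesis factors process ribosomal RNA and assemble the subunits. Of 32 tested, 16 rose, against 8.98% of all tested genes, and 0 fell. The median log2 fold change was 0.25, and the TWEAK libraries lay above the untreated ones in 28, against 20.0%. Leaving out a library gave 9 to 18 rises, with 9 without TWEAK trial 2 and 10 without untreated trial 1 or 2, against 3.92%, 5.01% and 5.52% of all genes in these fits. The trial as a block gave 26, against 15.4%. Eif6, which keeps free large subunits from joining small ones, rose 1.50-fold (limma adjusted p = 0.00252). Nop2, a ribosomal RNA methyltransferase, rose 1.35-fold (0.00300), and Nhp2, a protein of the particles that pseudouridylate ribosomal RNA, rose 1.53-fold (0.00374). These 3 passed without any single library. By trial the medians of this list were 0.20, 0.30 and 0.32, a narrower range than that of the members.

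RNA polymerase I transcribes the ribosomal RNA genes. Of 14 tested genes for its subunits and factors, Taf1d alone rose (fold 1.24, limma adjusted p = 0.0329, lost without each library in turn except TWEAK trial 1), 0 fell, and the median was 0.15. That count is near the 8.98% of all tested genes. With the trial as a block 6 passed, against 15.4%. Of 18 other genes whose mRNAs carry TOP tracts, 5 rose (background 8.98%), 0 fell and the median was 0.16, with 6 rises under the block (background 15.4%). They were the nucleolar chaperone Npm1 (fold 1.38, limma adjusted p = 0.0150), the poly(A)-binding protein gene Pabpc1 (1.27, 0.0196), the elongation factor gene Eef1g (limma adjusted p = 0.0317), Hnrnpa1 and Nap1l1. Without TWEAK trial 1, 2 or 3 the count was 6, 0 or 3 (backgrounds 9.92%, 3.92% and 7.49%). Without untreated trial 1, 2 or 3 it was 1, 0 or 3 (backgrounds 5.01%, 5.52% and 5.80%). Eef1a1, the most abundant of them, had a log2 fold change of 0.12 ± 0.11 (limma adjusted p = 0.522).

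Among 16 tested genes for growth control of ribosome synthesis, Myc was the single rise, a share under the background of 8.98%. This transcription factor, which activates genes of ribosomal proteins and of ribosome assembly, measured 10.5, 11.8 and 12.7 FPKM with TWEAK and 6.86, 6.38 and 7.02 FPKM without. All TWEAK values lay well above the untreated ones, a fold of 1.73 (limma adjusted p = 9.00e-04), and the call held without any single library, at 0.00928 or less. Rptor, the mTORC1 scaffold, was the single fall, a share close to the background of 6.10%. It stood at 0.837 of its untreated level (limma adjusted p = 0.0416, lost without TWEAK trial 2 or 3 or untreated trial 1 or 2). That call was also lost with the length trend removed (limma adjusted p = 0.0967), and 0 genes of this list fell with each library scaled to the same summed FPKM. With the trial as a block, 1 gene of this list rose and 4 fell, where 15.4% of all tested genes rose and 12.5% fell. With the length trend removed as well, 1 rose, against 14.7% of all tested genes, and 1 fell, where 1712 of 12770 fell. The median of this list in the main fit was 0.01 on the log2 scale.

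Mitochondrial ribosomal proteins, encoded in the nucleus for a separate ribosome and also short genes, served as the nearest family for comparison. Of 78 tested, 6 rose, a share under the 8.98% of all tested genes, and 0 fell. The median log2 fold change was 0.13, and the TWEAK libraries lay above the untreated ones in 30, against 20.0% of all tested genes. With the trial as a block 16 rose, against 15.4%. Without TWEAK trial 1, 2 or 3 the count was 13, 1 or 3 (backgrounds 9.92%, 3.92% and 7.49%). Without untreated trial 1, 2 or 3 it was 2, 1 or 4 (backgrounds 5.01%, 5.52% and 5.80%). By trial their medians were 0.03, 0.12 and 0.24, in the same order as the 0.10, 0.25 and 0.39 of the cytosolic proteins and smaller in each. The difference between the families was not tested.

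Cell cycle genes, which are off in fused myotubes and on in dividing myoblasts, had the largest median of the lists followed here. Of 24 tested, 18 rose, against 8.98% of all tested genes, and 0 fell, with a median log2 fold change of 0.77. The count was 23 with the trial as a block (background 15.4%) and 3 with no filter on low values (1.90%). It was 12 without TWEAK trial 2 (3.92%) and 14 to 19 without another library (backgrounds 5.01% to 9.92%). Their medians by trial, 0.78, 0.82 and 0.66, did not follow the order of the members' medians. The part of dividing cells in the members' difference was not tested.

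**Figure D5:**
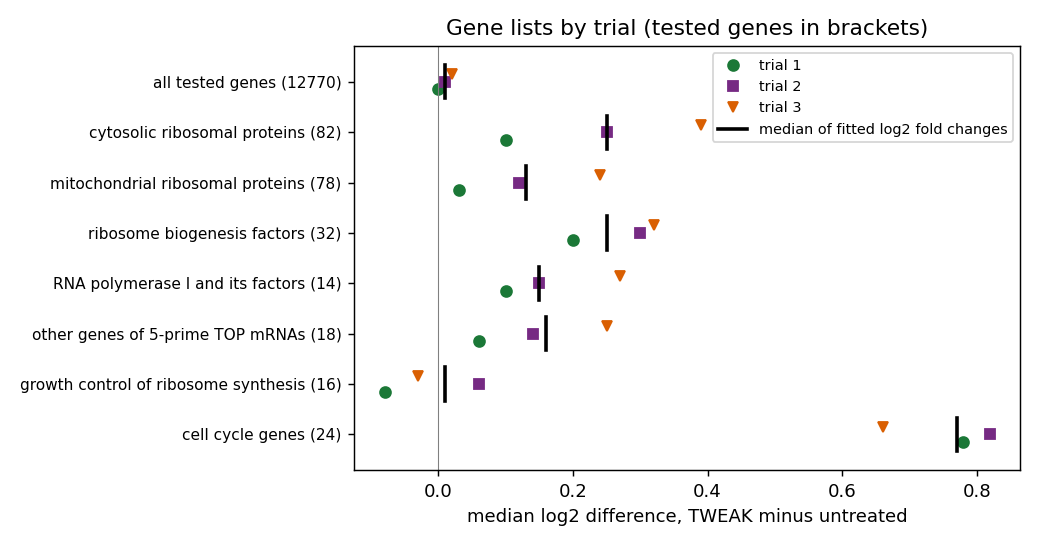
Median log2 difference between the TWEAK and the untreated library (x axis) in trial 1 (green circles), trial 2 (purple squares) and trial 3 (orange triangles) for each gene list, with the number of tested genes in brackets and a black bar at the median of the fitted log2 fold changes. Cytosolic ribosomal proteins lie at 0.10 in trial 1 and 0.39 in trial 3, mitochondrial ones at 0.03 and 0.24, and all tested genes stay near 0.

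The authors' deposited table, from their own DESeq2 comparison, lists all 82 tested members with an adjusted p. In it 56 members were higher at an adjusted p under 0.05 and 0 were lower, against 11.2% of its genes called higher. Its median log2 fold change over members was 0.25, against 0.00 over all its genes. In the authors' deposited table all 8 members called here were also higher, as were 46 of the 52 called with the trial as a block. That fit may include libraries not analysed here.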

How the data were processed

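RNA was measured in 6 C2C12 libraries, 3 per treatment. The tools named per the submitters' processing notes are STAR 2.6.0c, HTSeq 0.6.1p2, Trim Galore 0.5.0 and DESeq2 1.22.2, with build GRCm39; use of strand is not given in the sources used here. Per the file headers, the deposited table gives FPKM per library, and the authors' own mean normalized signal, log2 fold change, score (test statistic) and p-values. Read numbers and gene lengths were recovered from the steps of the FPKM: 126386 values were whole numbers of reads to a relative 1e-06, after a common factor had been assumed for 297 tested genes, the member Rpl12 among them. Columns with no matching sample numbered 0.

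The test was limma 3.58.1 (R 4.3.3) with a mean-variance trend on log2(FPKM + 1), mean FPKM at least 0.5, group only, adjusted p (Benjamini-Hochberg) under 0.05, two-sided. It was also run on simulated reads, drawn for each gene on its own. These held no differences that genes of a library share, so that run cannot check the calls against such differences. A fold is a ratio of mean FPKM, which a pseudocount of 1 in the log2 value shrinks for low genes. Alternatives were other pseudocounts, filters and scalings, the trial block, a lowess on log2 length with a span of 0.3, limma-voom on recovered reads, and libraries left out. Trial numbers were taken to pair libraries from the data, not the labels: deviations from group means correlated at 0.473, 0.218 and 0.434 within trials and at -0.02 or lower between them. Deviations cancel out within each group, so positive correlations within trials bring negative ones between trials. The latter are not separate evidence of pairing, and the fits with the trial block rest on this pairing.

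The members and lists were chosen with earlier results of these data known. Named members were the paralogs with their partners, the 3 highest and lowest in level, up to 8 called by fold, the stalk and a set with known roles; of each list, up to 3 called per direction. Any other gene was named with its values known. Sequences are from RefSeq (GRCm38.p6); the deposited gene positions (GRCm39) were not mixed with them. Python 3.11.15, pandas 2.3.3 and scipy 1.17.1 were also used. A gene of the related lists is not reported here.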

Additional observations from a re-analysis of the deposited data

How the results depend on the processing

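No alternative called any member lower, and the members' median log2 fold change stayed between 0.17 and 0.32, from a value of 0.25. The number of members called higher (8) depended strongly on the fit: 1 with no filter on low values (background 1.90%), 18 with limma-voom on recovered reads (background 9.53%), 37 with each library scaled to the same summed FPKM (8.42%), 52 with the trial number as a block, 33 with the length trend removed and the block, 75 with limma-voom and the block (16.6%), and 37, 16 and 8 with the block and without trial 1, 2 and 3. Leaving out a library gave 0 to 35. Over all genes, 1926 calls became 801 with no filter, 3563 with the block, 3591 with the length trend removed and the block, 4015 with limma-voom and the block, and 2925, 3015 and 2959 with the block and without trial 1, 2 and 3; leaving out a library gave 844 to 2101. The correlation of fold change with length (-0.16) ranged from -0.20 (without TWEAK trial 1) to -0.08 (without TWEAK trial 3). Signs turned for Rpl10 (-1.83e-04 with the length trend removed, with or without the block), Rpl22l1 (-0.01 without TWEAK trial 3, in a range up to 0.22 without a library) and Rps27rt (0.03 with the block and without trial 2), none of which was called. Over the named members and all alternatives, 485 results kept direction and side of the threshold, 47 lost a call, 72 gained one and 4 turned sign; the cause was not tested. The alternatives that pair a second change with the block were chosen after seeing the data. Among the members above 0, read depth limits Rpl3l, Rpl39l and Rps27rt most.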

Other observations

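Annotated pseudogenes of the members were counted under names of their own. The table lists 314 genes named in the scheme of the members with a -ps suffix, of which 219 were above 0 and 49 were abundant enough to test. Together they summed to 833 to 1034 FPKM per library, 3.63% of the members' sum. Of the 49 tested, 1 was called higher, against 8.98% of all tested genes, and 1 lower, against 6.10%. Both shares lay under the background. Rps15a-ps7 rose by 0.43 on the log2 scale (limma adjusted p = 0.0208), at a mean of 22.3 FPKM with TWEAK and 16.2 without. Rpl36-ps2 fell by 0.45 (limma adjusted p = 0.0387), at 0.468 FPKM with TWEAK and 0.988 without. It passed the filter of 0.5 FPKM only through the untreated group, so its fall does not count as support. The highest was Rps2-ps10, at a mean of 261 FPKM, as high as many members. How far reads of the members were assigned to these copies was not tested. Rpl48-ps1 and Rps4l-ps, both at 0, have no parent among the members. Pseudogenes listed under any other kind of name were not counted, so these sums may be too low.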
